A study of Mus musculus with 20 samples.

Results

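The transcriptome of pachytene spermatocytes was compared between Cxxc1-null and wild-type (WT) mice. Genes were included where the deposited value, in FPKM (fragments scaled by transcript length and by library total), was at least 1 in at least 2 of the 4 pachytene libraries. This rule kept 11081 of the 23235 genes in the table. Of these, 9771 were at 1 FPKM or more in all 4 libraries, 301 entered through the 2 Cxxc1-null libraries alone and 73 through the 2 WT libraries alone. Members just inside the limit, with 1 FPKM in exactly 2 libraries, numbered 657 and had a median level of 1.11 FPKM, against 819 genes just outside with a median of 0.762 FPKM.

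The cells came from testes of adult male mice on the C57BL/6 background (C57BL/6J in the growth protocol), and each library was made from 500 spermatocytes obtained by flow cytometry, using Smart-seq2, in which oligo-dT primes full-length cDNA. WT and Cxxc1-null pachytene groups had 2 libraries each, and the same study held diplotene and meiosis II libraries of both genotypes, 12 RNA libraries in all. The driver of the deletion, the deleted exons and the parentage of the WT mice were not stated in the labels. Whether the 2 libraries of a group were from different mice is not labelled. P-values therefore cover the spread between libraries, and this spread may be technical.

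CXXC1 (CFP1) is a CXXC zinc-finger protein that binds unmethylated CpG and is a subunit of the SETD1 complexes, which trimethylate histone H3 lysine 4 at active promoters. Pachytene is the stage of meiotic prophase at which homologous chromosomes are fully synapsed. In male cells the unsynapsed X and Y chromosomes are silenced at this stage within the sex body, a process called meiotic sex chromosome inactivation, and many genes used later by spermatids are already transcribed from the autosomes.

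The promoters of the genes with the largest called rises and falls, among those with a window in the table, are shown because CXXC1 binds CpG and because these genes differed in how many CG dinucleotides their promoters held. Sequences are RefSeq windows on GRCm38.p6, from 250 bases before to 50 after an annotated start, written 5′ to 3′ along the gene, with every CG in capitals; mm9 is the build named for the FPKM table, so windows were matched by gene symbol and not by position. The motif searched was CG, which reads the same on both strands, and 94.6% of all 32851 windows in the table held at least 1. The first pair rose in Cxxc1-null pachytene cells and the other genes fell.
4933436I01Rik (chrX:67921401-67921700, minus strand): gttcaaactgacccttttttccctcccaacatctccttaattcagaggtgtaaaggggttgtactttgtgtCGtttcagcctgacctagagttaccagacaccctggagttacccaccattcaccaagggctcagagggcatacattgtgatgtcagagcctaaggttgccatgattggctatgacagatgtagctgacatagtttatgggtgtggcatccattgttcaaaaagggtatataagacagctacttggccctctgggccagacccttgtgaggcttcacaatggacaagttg
2610016A17Rik (chr19:25672190-25672489, minus strand): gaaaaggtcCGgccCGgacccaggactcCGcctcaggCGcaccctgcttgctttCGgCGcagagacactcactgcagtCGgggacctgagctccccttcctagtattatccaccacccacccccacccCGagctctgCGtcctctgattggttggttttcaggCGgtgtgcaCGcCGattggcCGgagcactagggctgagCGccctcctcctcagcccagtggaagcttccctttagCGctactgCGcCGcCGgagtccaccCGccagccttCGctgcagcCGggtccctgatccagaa
Maz (chr7:127026956-127027255, minus strand): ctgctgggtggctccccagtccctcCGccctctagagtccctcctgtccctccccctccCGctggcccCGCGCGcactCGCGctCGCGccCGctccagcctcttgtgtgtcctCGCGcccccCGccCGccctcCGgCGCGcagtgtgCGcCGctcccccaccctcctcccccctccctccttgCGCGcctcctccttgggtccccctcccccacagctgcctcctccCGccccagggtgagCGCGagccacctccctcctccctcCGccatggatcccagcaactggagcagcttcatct
Maz (chr7:127026430-127026729, minus strand): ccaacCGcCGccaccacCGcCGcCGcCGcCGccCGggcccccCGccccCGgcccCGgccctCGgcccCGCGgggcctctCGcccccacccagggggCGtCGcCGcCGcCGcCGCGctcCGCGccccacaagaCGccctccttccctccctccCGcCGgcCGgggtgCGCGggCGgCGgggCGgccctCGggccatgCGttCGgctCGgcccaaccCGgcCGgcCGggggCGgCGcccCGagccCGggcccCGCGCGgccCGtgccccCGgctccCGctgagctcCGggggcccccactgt
1700010B08Rik (chr2:173719165-173719464, plus strand): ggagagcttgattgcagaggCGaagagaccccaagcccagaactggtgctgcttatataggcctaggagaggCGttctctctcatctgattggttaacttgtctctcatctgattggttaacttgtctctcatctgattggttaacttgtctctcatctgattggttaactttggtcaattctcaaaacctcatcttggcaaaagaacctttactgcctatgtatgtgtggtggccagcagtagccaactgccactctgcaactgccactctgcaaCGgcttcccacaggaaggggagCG
The window of 4933436I01Rik held 1 CG and that of 2610016A17Rik held 21. Maz has a pair of annotated windows, with 25 and 51 CG, and 1700010B08Rik held 4. These counts are descriptions of the letters in the window and not of CXXC1 binding, which was not measured in the files used here.

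The targeted gene was still detected in Cxxc1-null libraries. Cxxc1 (chromosome 18) stood at 11.7 and 17.3 FPKM in WT replicates 1 and 2, and at 9.19 and 9.57 FPKM in Cxxc1-null replicates 1 and 2. The Cxxc1-null values lay below both WT values, as they did in 13.3% of all tested genes. The log2 difference was -0.56 ± 0.25 (SE, n = 2 libraries per genotype) with a limma adjusted p of 0.47, which did not pass the threshold of 0.05. It was -0.29 without WT replicate 2 and -0.82 without WT replicate 1. The table holds a value per gene and not per exon, so RNA from outside a deleted part would be counted in it, and the labels were therefore not checked by this gene.

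The other SETD1 subunits did not pass the test either. Of the 10 genes of the list in the data, 9 were members, counting Cxxc1 itself, and 0 were called. Setd1a, the catalytic subunit, stood at 2.99 and 5.93 FPKM in WT and at 2.52 and 2.83 FPKM in Cxxc1-null libraries, so both Cxxc1-null values lay below both WT values. Dpy30, a core subunit shared with the MLL complexes, stood at 160.9 and 90.8 FPKM in WT and at 181.7 and 171.3 FPKM in Cxxc1-null libraries, the latter above both WT values. Of the shared core subunits, Rbbp5 was at 5.48 and 6.85 FPKM in WT and 7.01 and 7.70 FPKM in Cxxc1-null libraries, with the groups apart. Groups overlapped for the core subunit Wdr5, with 18.6 and 26.3 against 18.9 and 18.7 FPKM. They also overlapped for Ash2l, another core subunit, with 94.0 and 132.4 against 114.4 and 85.9 FPKM, and for Wdr82, the SETD1-specific subunit, with 7.06 and 8.48 against 7.74 and 10.04 FPKM. Bod1 was at 47.2 and 51.8 against 53.1 and 48.4 FPKM, and the SETD1-associated Bod1l at 7.80 and 7.90 against 8.05 and 6.501 FPKM, again with overlap. Among 12 members of the list of other H3K4 methyltransferases and demethylases, 2 had a positive difference, the median log2 difference was -0.31 and 0 were called. WT replicate 1 minus WT replicate 2 had a median of -0.32 over the same members, as large as the genotype median. With a library left out the genotype median ran from -0.41 to -0.25. In that list the demethylase gene Kdm5b was at 87.9 and 98.3 FPKM in WT and at 72.2 and 72.9 FPKM in Cxxc1-null libraries, and Men1, which encodes the MLL partner menin, was at 5.90 and 10.3 against 5.47 and 4.12 FPKM. Paxip1, an MLL3/4 complex gene, was at 5.26 and 8.24 against 3.82 and 4.33 FPKM. The Cxxc1-null values of these 3 genes lay below both WT values. The same held for 6 of the 12 members in all (50.0%) and for 13.3% of all tested genes.

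The libraries held the genes of the pachytene list but did not agree equally well with each other. All 22 genes of the list were members, with summed levels of 17420 and 12990 FPKM in WT and 15320 and 13960 FPKM in Cxxc1-null libraries, and Ldhc, the germ-cell lactate dehydrogenase, was among the most abundant genes at 6878 to 9758 FPKM. The sums were 14200 to 17880 FPKM in the diplotene and 14210 to 16060 FPKM in the meiosis II libraries, so the list does not tell pachytene from these stages. Across members, the correlation of log2(FPKM + 1) was 0.952 between the WT libraries and 0.974 between the Cxxc1-null libraries, whereas WT replicate 1 correlated with the Cxxc1-null libraries at 0.965 and 0.964. These are correlations across genes, which are not independent replicates. At least a 2-fold difference in FPKM + 1 was seen in 9.39% of members between the WT libraries and in 1.74% between the Cxxc1-null libraries. WT replicate 2 thus stood apart from the other 3. The number of genes at 1 FPKM or more was 10492 and 10662 in WT and 10948 and 11074 in Cxxc1-null libraries, and genes listed at 0 numbered 6675 and 6477 against 5958 and 5463. The part of this difference in detection in the results that follow was not tested; the files give no read depth.

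Most of the few genes called in pachytene were higher in Cxxc1-null cells, and most of the risen members had low WT levels. In limma on log2(FPKM + 1), 46 of 12956 tested genes (0.355%) were called at an adjusted p under 0.05, and 44 of them (0.34% of those tested) were higher in Cxxc1-null cells. Of the called genes 45 were members, 43 risen and 2 fallen. At an unadjusted p under 0.05 there were 1388 genes. Of the called members, 18 had entered through the Cxxc1-null libraries alone and 0 through the WT libraries alone. Of the 43 risen members, 37 had a WT mean under 5 FPKM and 21 under 1 FPKM. The inclusion rule set part of these counts, since the 18 had both WT values under 1 FPKM. The share of all members under these WT levels was not counted. In 5 equal bins of mean level over the 4 libraries, the called rises numbered 16, 17, 6, 4 and 0 from lowest to highest. The bins had median levels of 1.6, 4.45, 10.8, 28.5 and 132 FPKM. Leaving out a library lowered the count, to 9 calls for WT replicate 1 (5 of them among the 46), 21 for WT replicate 2 (13 among the 46) and 1 for Cxxc1-null replicate 1 or 2 (0 among the 46, and 0 members). In these fits the lone library of a group is assumed to vary like the other groups. With bulk libraries, more cells of a type and more RNA per cell cannot be told apart. The library kit marks no strand, so that reads of overlapping genes cannot be assigned between them.

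**Figure D1:**
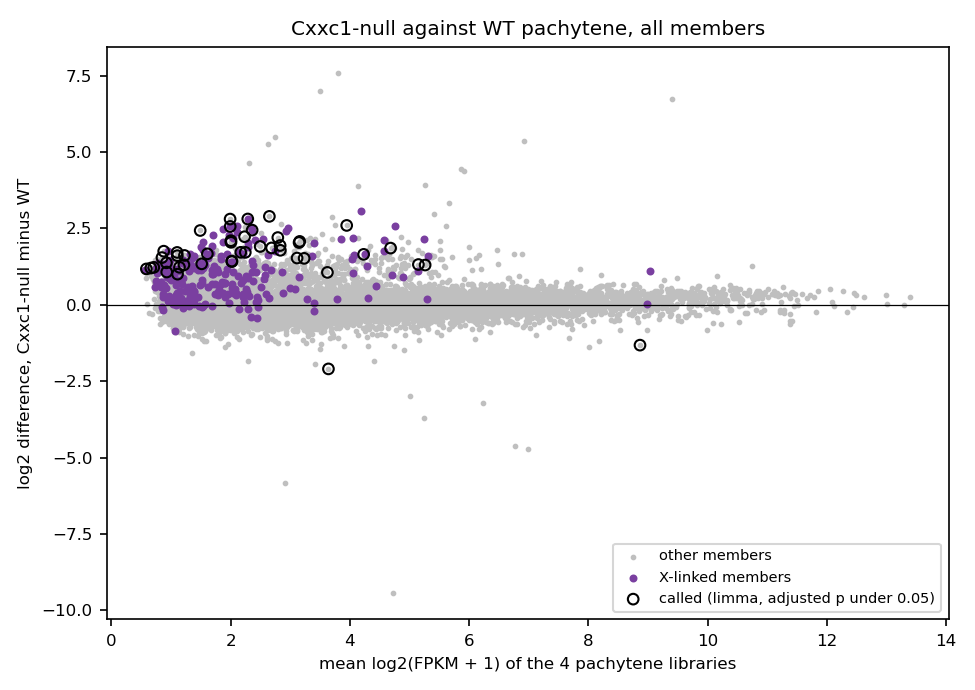
Each point is a member gene, placed by its mean log2(FPKM + 1) over the 4 pachytene libraries (x axis) and its log2 difference, Cxxc1-null minus WT (y axis). X-linked members are purple and called genes are circled; 43 of the 45 circled genes lie above 0, mostly at low mean levels, and X-linked genes lie mostly above 0.

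The largest called rise was of Cd24a, which encodes a glycosylphosphatidylinositol-anchored surface glycoprotein. It stood at 0.682 and 2.15 FPKM in WT and at 16.6 and 15.7 FPKM in Cxxc1-null libraries. The Cxxc1-null values lay far above both WT values, with a log2 difference of 2.90 ± 0.30 (SE, n = 2 per genotype) and a limma adjusted p of 0.0061. Slco1a6, an organic anion transporter gene, was nearly silent in WT at 0.115 and 0.309 FPKM and rose to 5.52 and 5.53 FPKM, with a log2 difference of 2.43 ± 0.22. The beta-defensin gene Defb41 rose from 1.13 and 1.21 to 7.90 and 10.7 FPKM, and 9530002B09Rik from 6.44 and 4.28 to 38.8 and 35.2 FPKM. These 4 genes were called in 12 of the 15 alternative fits, more than any other called gene. Sln, which encodes the calcium pump regulator sarcolipin, had a listed value of 0 in WT replicates 1 and 2 and stood at 2.52 and 2.24 FPKM in Cxxc1-null libraries (limma adjusted p = 0.0061).

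Other genes among the largest rises encode proteins of various kinds. Postn, encoding the matrix protein periostin, rose from 1.74 and 2.09 to 10.1 and 9.77 FPKM, a log2 difference of 1.91 ± 0.22. Cyp19a1, encoding aromatase, which converts androgens to oestrogens, rose from 1.80 and 3.08 to 8.96 and 14.1 FPKM. Both genes had Cxxc1-null values above both WT values. Plb1, a phospholipase B gene, rose from 1.43 and 3.29 to 11.8 and 16.2 FPKM. Galnt14, which encodes an O-glycosylation enzyme, rose from 0.530 and 1.46 to 8.85 and 6.01 FPKM. Steap1, of a metalloreductase family, rose from 2.37 and 4.61 to 14.9 and 20.2 FPKM. In each of these 3 genes the groups were again apart. Gchfr, the feedback regulator of GTP cyclohydrolase, rose from 2.35 and 3.41 to 12.7 and 11.8 FPKM. Vmn1r40, a vomeronasal receptor gene, rose from 0.960 and 0.993 to 6.43 and 7.98 FPKM, and Vpreb3, of the surrogate immunoglobulin light chain family, from 2.51 and 4.45 to 15.0 and 19.2 FPKM. Log2 differences of these genes lay between 1.78 and 2.20 with limma adjusted p-values of 0.011 to 0.046.

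The remaining risen autosomal coding genes had log2 differences of 1.00 to 1.72. They include the transcription regulator genes Gata6, at 0.502 and 0.188 against 3.40 and 2.81 FPKM, Snai2, at 1.38 and 1.56 against 6.23 and 5.13 FPKM, and the corepressor gene Skor1, at 0.206 and 0.427 against 1.76 and 1.76 FPKM. Rbpms, encoding an RNA-binding protein, was at 7.85 and 7.23 against 16.8 and 16.8 FPKM, and Myl4, a myosin light chain gene that overlaps Cdc27, at 22.1 and 24.9 against 64.6 and 54.4 FPKM. In all 5 genes the Cxxc1-null values were above both WT values. Others included Htr1f, a serotonin receptor gene listed at 0 in WT, the glutathione transferase gene Gsta4, the phosphatase inhibitor gene Ppp1r14c, the collectin gene Colec11, the gasdermin gene Gsdmc2, Hddc3, Clnk, Gapt, C2cd2 and Jakmip2. Their ratios of mean FPKM, Cxxc1-null over WT, ran from 3.22 in C2cd2 to 21.4 in Gapt where WT was above 0.

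Long noncoding RNA genes made up 9 of the 43 rises (20.9%), against 6.44% of members and 6.78% of tested genes; this share was not tested. The largest was 2610016A17Rik, whose promoter is printed above, at 0.741 and 0.298 FPKM in WT and 7.01 and 12.8 FPKM in Cxxc1-null libraries, a log2 difference of 2.81 ± 0.37. The most abundant were 1700101I11Rik, at 19.6 and 23.5 against 62.9 and 48.2 FPKM, and 4930423M02Rik, at 13.6 and 11.5 against 50.3 and 45.6 FPKM. Mira was listed at 0 in WT replicate 1 and stood at 0.406 FPKM in WT replicate 2, against 2.52 and 3.31 FPKM. Its called neighbour Hoxa7, within 100 kb in the reference, is not a member, being listed at 0 and at 0.0461 FPKM in WT and at 0.799 and 0.945 FPKM in Cxxc1-null libraries. The other 5 were Gm19705, Gm16062, 1700024F13Rik, 4930529F24Rik and 9930014A18Rik. The inclusion rule can raise the count of 9. Of these genes 2610016A17Rik, Mira, 1700024F13Rik, 4930529F24Rik and 9930014A18Rik became members through the Cxxc1-null libraries alone. Several noncoding genes overlap a coding gene of the table: 1700101I11Rik overlaps Gabarapl1, Gm16062 overlaps Cops3, 4930529F24Rik overlaps Nrg3 and 9930014A18Rik overlaps Fam84b. The transcribed pseudogene Sycp1-ps1, at 0.791 and 0.802 against 4.25 and 2.94 FPKM, is a near copy of Sycp1, and how the authors divided reads between the copies is not stated in the labels.

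The 2 called falls were from higher levels. Maz, which encodes a zinc-finger transcription factor that binds GC-rich promoters, fell from 18.8 and 32.7 FPKM to 5.24 and 4.82 FPKM, a log2 difference of -2.10 ± 0.34 with a limma adjusted p of 0.044. Maz overlaps Prrt2 in the reference. 1700010B08Rik fell from 825.8 and 656.7 FPKM to 261.9 and 331.0 FPKM, a log2 difference of -1.32 ± 0.20 with a limma adjusted p of 0.037. In both genes all Cxxc1-null values lay below all WT values.

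**Figure D2:**
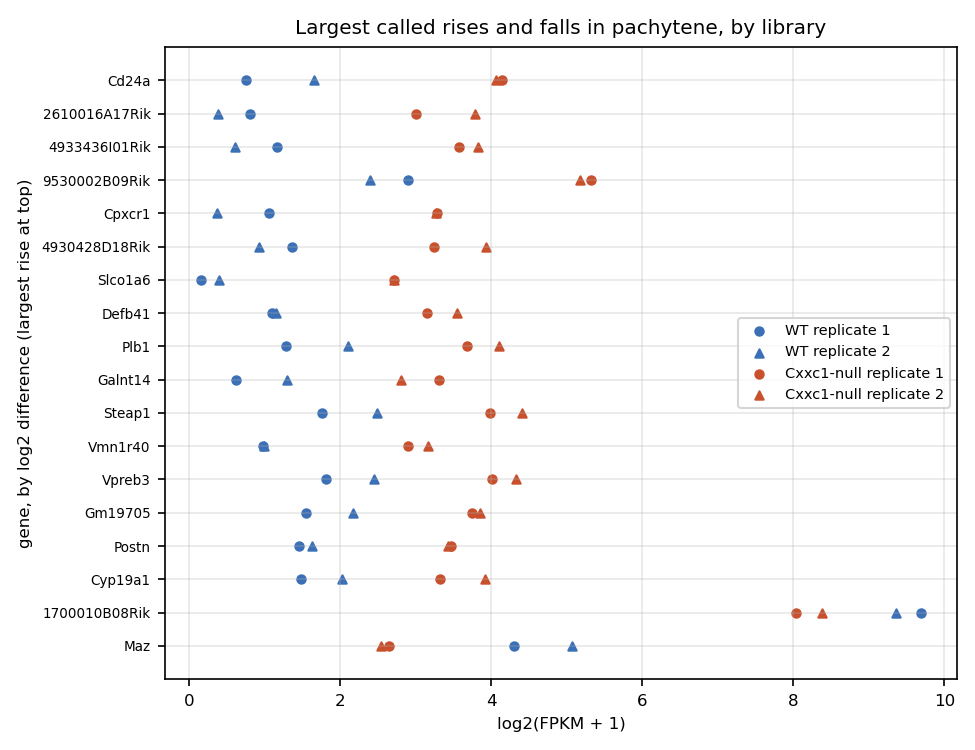
Level of the 16 called members with the largest rises and the 2 that fell in each pachytene library, as log2(FPKM + 1); each gene is a line of 4 points, ordered by log2 difference, with WT in blue and Cxxc1-null in orange. The Cxxc1-null points do not overlap the WT points, lying above them in the 16 genes that rose and below them in Maz and 1700010B08Rik.

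The same genes were looked at in the diplotene and meiosis II libraries. These also gave the model its estimate of spread, so the called genes were not chosen independently of them. Of the 45 called members, 44 had the same sign in diplotene and 43 in meiosis II. Over all tested genes, 60.6% were positive in diplotene and 51.6% in meiosis II. In diplotene 24 of the 45 passed the limma test, where 0.787% of tested genes did, and in meiosis II 31 did, where 10.5% of tested genes did. The groups were apart in the same direction in 42 of 45 at either stage. Of all tested genes, 30.4% in diplotene and 30.1% in meiosis II had both Cxxc1-null libraries above both WT libraries. A fit of the 4 pachytene libraries alone used no library of the other stages and called 22 genes, 8 of them among the 46. Of its 20 risen genes, 14 had both Cxxc1-null libraries above both WT libraries in diplotene, where 30.4% of tested genes did, and 12 in meiosis II, where 30.1% did. Cd24a had log2 differences of 2.74 in diplotene and 2.31 in meiosis II, and Slco1a6 of 2.44 and 2.28, close to the pachytene values. The difference of Gsta4 was 1.42 in pachytene, -0.27 in diplotene and 0.22 in meiosis II, and that of Snai2 was 1.43, 0.98 and 0.09. The difference of the genotype effect itself was tested for all genes. Against diplotene 3 genes passed (0.0232% of those tested) and against meiosis II 4 passed (0.0309%), and 0 of them were members. At an unadjusted p under 0.05 these limma tests gave 204 and 1225 members, and 6 and 21 of the called members, and the smallest adjusted p of a member was 0.30 and 0.074. Other settings did call members: against meiosis II 5 under quantile normalization, 4 with a common median, 3 with no filter, 2 with the replicate block, 2 without WT replicate 1 and 4 without WT replicate 2. Against diplotene they called 1 with the replicate block, 1 without WT replicate 1 and 2 without WT replicate 2.

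X-linked members leaned towards higher levels in Cxxc1-null cells, and autosomal members did not. Of 232 X-linked members, 217 (93.5%) had a positive log2 difference and the median was 0.81, whereas 50.8% of 10763 autosomal members were positive, with a median of 0.01. Both Cxxc1-null libraries lay above both WT libraries in 150 X-linked members (64.7%), against 24.1% of all tested genes, and below them in 2 (0.862%), against 13.3% of all tested genes. The medians of the 19 autosomes ran from -0.05 on chromosomes 8 and 15 to 0.08 on chromosome 14. All 4 Y-linked members were positive, with a median of 0.45. In the limma test 4 X-linked members (1.72%) were called, against 0.381% of autosomal members and 0.355% of all tested genes. The X-linked difference was thus broad and mostly below the threshold for single genes.

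The inclusion rule can raise this count, since 52 X-linked members entered through the Cxxc1-null libraries alone and 1 through the WT libraries alone. Among the 179 X-linked members at 1 FPKM in at least 1 library of each genotype, 165 were positive with a median of 0.65, against 50.0% and 0.00 of autosomal members so chosen. Among the 115 X-linked genes at 1 FPKM in both WT libraries, a choice that goes the other way, 102 were positive with a median of 0.59, against 47.9% and -0.02 for autosomal genes. In the limma test 3 of the 179 (1.68%) and 0 of the 115 were called, against 0.23% and 0.213% of autosomal genes so chosen. Over all 407 X-linked genes tested, members or not, 361 were positive with a median of 0.43, against 53.2% and 0.03 of tested autosomal genes. In each of 5 equal bins of mean level, at least 92.9% of X-linked members were positive, with medians of 0.57 to 1.44; the bins held 128, 74, 14, 14 and 2 of them from lowest to highest. With quantile normalization the X-linked median was 0.64 with 200 positive, and with a common median 0.77 with 210 positive.

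The mean log2(FPKM + 1) of X-linked members minus that of autosomal members was -2.20 and -2.56 in WT and -1.70 and -1.35 in Cxxc1-null libraries. The X chromosome stayed below the autosomes in all 4 libraries, and the 2 Cxxc1-null values were above both WT values, by 0.86 on average. With 2 libraries against 2 the exact two-sided permutation test cannot go below 0.333 and could therefore not pass 0.05. X-linked members at 1 FPKM or more numbered 160 and 135 in WT and 216 and 229 in Cxxc1-null libraries. The median level of all X-linked members was 1.60 and 1.20 against 2.98 and 4.04 FPKM. Their share of all member FPKM was 0.221% and 0.156% in WT and 0.319% and 0.346% in Cxxc1-null libraries. These counts and levels follow in part from the inclusion rule. By that rule 52 X-linked members entered through the Cxxc1-null libraries alone and 1 through the WT libraries alone. In the other stages, the X-linked minus autosomal mean was -3.00 and -2.90 in WT diplotene and -2.62 and -1.96 in Cxxc1-null diplotene. In meiosis II it was -0.43 and -0.57 in WT and -0.18 and 0.20 in Cxxc1-null libraries. The Cxxc1-null libraries were the higher at each stage, so the pattern was not found in pachytene alone, and whether the chromosome-wide size differed between stages was not tested.

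**Figure D3:**
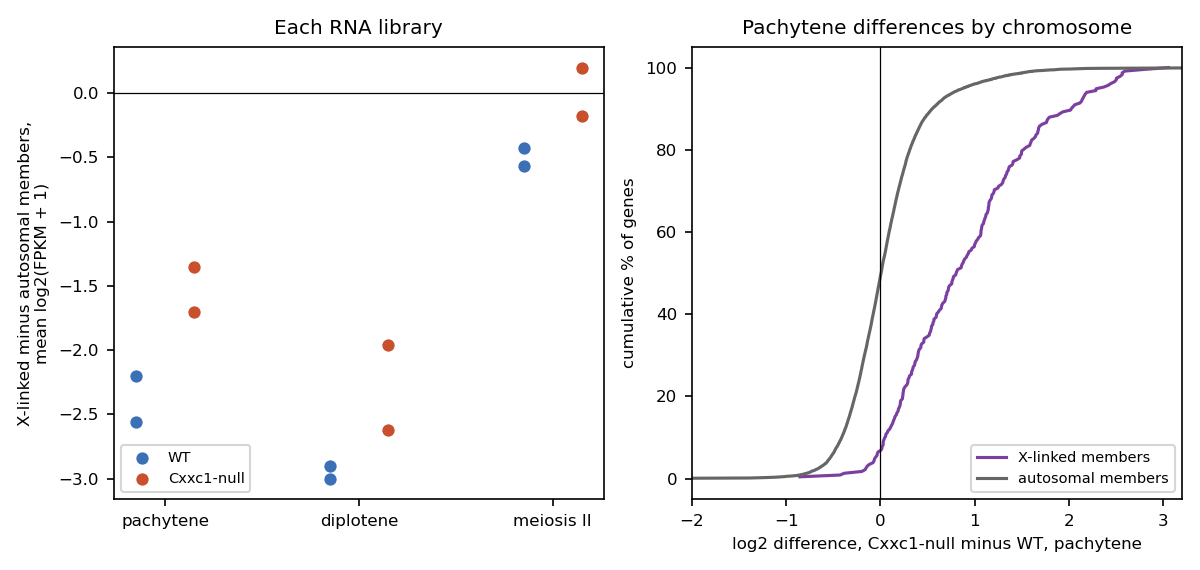
Left, mean log2(FPKM + 1) of X-linked members minus that of autosomal members in each of the 12 RNA libraries (points), by stage and genotype; in pachytene the Cxxc1-null libraries are at -1.70 and -1.35 and the WT libraries at -2.20 and -2.56. Right, cumulative percentage of X-linked and autosomal members against the pachytene log2 difference, with 15 of 232 X-linked members below 0.

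The called X-linked genes were low in WT. 4933436I01Rik was at 1.23 and 0.527 FPKM in WT and 10.9 and 13.1 FPKM in Cxxc1-null libraries, with a log2 difference of 2.81 ± 0.45. Cpxcr1 was at 1.08 and 0.289 against 8.74 and 8.64 FPKM, with a log2 difference of 2.57 ± 0.36. Both had Cxxc1-null values above both WT values. 4930428D18Rik, which RefSeq names Cldn34b4, of the claudin family, was at 1.56 and 0.895 against 8.43 and 14.3 FPKM. 3830403N18Rik was at 0.735 and 0.690 against 4.28 and 4.62 FPKM, and it overlaps 11 other entries in the reference. The groups were apart in these genes too.

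Among genes of the X-linked multicopy and testis list, 16 of 17 members were positive, with a median log2 difference of 1.06, and 1 was called, Cpxcr1. Summed over the list, levels were 81.4 and 86.5 FPKM in WT and 290.5 and 394.3 FPKM in Cxxc1-null libraries. Actrt1, an actin-related gene of the sperm head cytoskeleton, was at 1.32 and 1.56 against 5.80 and 8.45 FPKM (limma adjusted p = 0.074). The cysteine-rich perinuclear theca gene Cypt15 was at 1.91 and 0.512 against 11.4 and 11.0 FPKM, Cypt3 at 21.0 and 13.6 against 72.3 and 85.6 FPKM, and Cypt1 at 12.6 and 7.81 against 54.3 and 78.2 FPKM. The Cxxc1-null values were above both WT values in each of these, and limma adjusted p-values of the 3 Cypt genes were 0.12 to 0.28. Tsga8, encoding a testis-specific nuclear protein of haploid cells, was at 16.2 and 29.3 against 57.0 and 81.6 FPKM. The largest difference of any X-linked member was that of Cypt2-ps, at 5.50 and 5.08 against 44.1 and 59.5 FPKM, with a log2 difference of 3.05 ± 0.71 and an adjusted p of 0.13 in limma; it was chosen after its values were seen. Members of the Cypt family are near copies of each other, so that levels of single genes are uncertain.

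Genes of the X-linked housekeeping list had smaller differences. Of 27 members 24 were positive, with a median of 0.37, and 0 were called. Their autosomal counterparts, many of them retrogenes active in the germ line while the X is silent, had 9 of 17 positive and a median of 0.02, with 7 of 17 positive under quantile normalization. Prps1, encoding a phosphoribosyl pyrophosphate synthetase, was at 1.41 and 1.86 against 3.60 and 2.93 FPKM. Its autosomal retrogene Prps1l1 was at 371.6 and 237.4 FPKM in WT and 156.4 and 126.0 FPKM in Cxxc1-null libraries, with a log2 difference of -1.08 ± 0.24 and an adjusted p of 0.12 in limma. The groups were apart in opposite directions for this pair. Pgk2, the germ-cell phosphoglycerate kinase gene, was at 115.3 and 126.3 against 205.5 and 153.4 FPKM, with the Cxxc1-null values the higher. Exceptions among X-linked members included Ndufa1, a complex I gene at 815.8 and 309.0 against 455.6 and 577.2 FPKM, with overlap, and the homeobox gene Rhox13, at 1.14 and 2.68 against 0.380 and 0.748 FPKM, with the Cxxc1-null values below both WT values. Among Y-linked members, Eif2s3y, a translation initiation factor gene, was at 5.12 and 5.25 against 12.1 and 13.7 FPKM (limma adjusted p = 0.084).

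Promoter CG content was then set against the difference, over 8642 autosomal members with a RefSeq window. The 486 members with 0 to 2 CG, averaged over a gene's windows, had a median log2 difference of 0.48 and 78.4% were positive. The 556 members with over 2 to 5 CG had a median of 0.22, the 799 with over 5 to 10 a median of 0.09, and the 2546 with over 10 to 20 a median of -0.03. The 4255 members with over 20 CG had a median of -0.03 and 45.3% were positive. The median was thus lower in the CG-rich classes, and this is a description over genes with no test. The inclusion rule can raise these medians, since it kept genes that were high in Cxxc1-null libraries alone; the next values were added after seeing the data. Among members at 1 FPKM in at least 1 library of each genotype the medians were 0.36 in the 431 with 0 to 2 CG and -0.03 in the 4195 with over 20, and among genes at 1 FPKM in both WT libraries they were 0.32 in 365 and -0.04 in 4072. Of the 32 called members with a window, 16 (50.0%) had 5 CG or fewer, against 12.6% of members with a window and 43.6% of all windows; CG-poor members also had lower levels, with median means of 4.61 FPKM in the 0 to 2 class and 14 FPKM in the class over 20.

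The WT replicates differed along the same axis. In the class with 0 to 2 CG, the 4 differences of a Cxxc1-null minus a WT library had medians of 0.36, 0.41, 0.61 and 0.67, whereas WT replicate 1 minus WT replicate 2 had a median of 0.20 and Cxxc1-null replicate 1 minus replicate 2 of -0.08. In the class over 20 CG, the 4 medians were 0.06, 0.03, -0.08 and -0.10, and that between the WT replicates was -0.13, so the slightly negative medians of CG-rich members did not exceed the difference between WT replicates. From the CG-poorest to the CG-richest class the median differed by 0.33 between the WT replicates and by -0.12 between the Cxxc1-null replicates. It differed by 0.30 and 0.38 in the pairs that use WT replicate 1 and by 0.69 and 0.77 in those that use WT replicate 2. The trend with CG content was thus no larger than the WT replicate difference in 1 of the 4 genotype pairs and close to it in another. The genotype medians of the same 0 to 2 class were 0.30 in diplotene and -0.08 in meiosis II. X-linked members showed the same order, with a median of 1.52 in the 46 members with 0 to 2 CG, 46 of them positive. The medians were 1.10 with over 2 to 5, 0.77 with over 5 to 10, 0.50 with over 10 to 20 and 0.37 in the 37 members with over 20 CG. The inclusion rule can raise these values too, since 52 X-linked members entered through the Cxxc1-null libraries alone. Other choices of X-linked genes were not split by CG content. WT replicate 1 minus WT replicate 2 had medians of 0.27 in the X-linked 0 to 2 class and 0.21 in the class over 20.

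**Figure D4:**
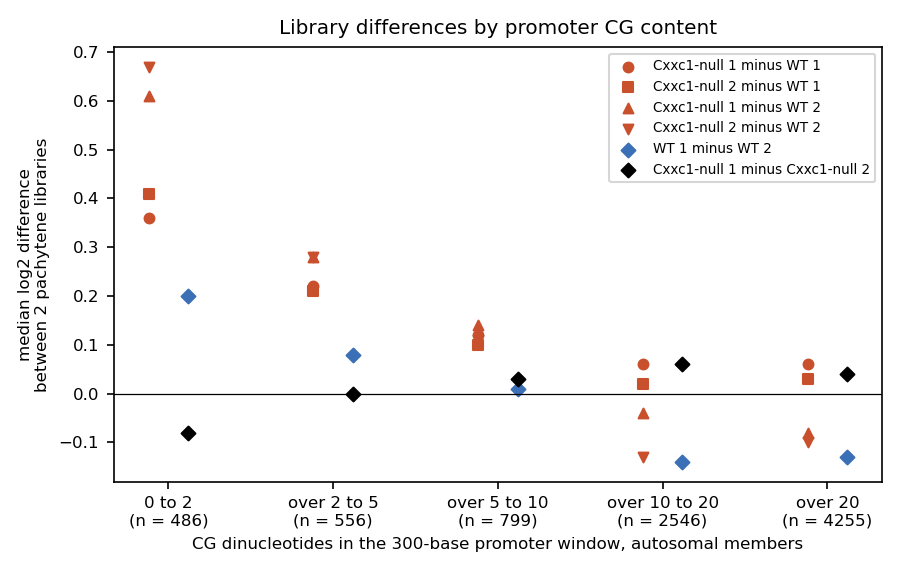
Median log2 difference between pairs of pachytene libraries (y axis) for autosomal members in 5 classes of CG count in the 300-base promoter window (x axis, with the number of genes). Orange symbols are the 4 Cxxc1-null minus WT pairs, blue is WT replicate 1 minus 2 and black Cxxc1-null replicate 1 minus 2; the orange symbols lie between 0.36 and 0.67 in the CG-poorest class and on both sides of 0 in the CG-richest.

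In the lists of recombination and synapsis genes 0 members were called. Differences were positive in 5 of 11 break formation and axis genes (median -0.02), 9 of 24 strand exchange genes (median -0.17) and 7 of 16 crossover genes (median -0.13), against a median of 0.04 over all tested genes. In the synaptonemal central region and telomere attachment list 3 of 10 were positive, with a median of -0.25; it became 0.20 without WT replicate 1, and the median difference between the WT replicates was 0.74. Dmc1, the meiotic recombinase gene, was at 10.5 and 2.79 FPKM in WT and 2.91 and 2.33 FPKM in Cxxc1-null libraries, so the groups overlapped and WT replicate 1 was the high library. Syce1, a central element gene, was at 508.6 and 486.5 against 751.1 and 593.7 FPKM, with the Cxxc1-null values higher (limma adjusted p = 0.47). The sex body and damage signalling list had 11 of 22 positive and a median of -0.02. In it H2afx, which encodes the histone variant phosphorylated on the sex body, was at 53.9 and 83.0 against 44.5 and 46.1 FPKM, and the ubiquitin ligase gene Ubr2 at 1.91 and 2.02 against 1.17 and 1.27 FPKM. Both were lower in each Cxxc1-null library than in either WT library.

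Pachytene, piRNA and chromatin lists likewise had 0 called members. In the pachytene list 8 of 22 were positive, with a median of -0.03. Under quantile normalization 2 of 22 were positive with a median of -0.17, and without Cxxc1-null replicate 2 the median was 0.07. The testis linker histone gene Hist1h1t was at 5.08 and 5.11 against 2.53 and 2.78 FPKM. In the piRNA pathway list, whose products silence transposons and process pachytene piRNAs, 7 of 22 were positive with a median of -0.13. Piwil1 was at 213.3 and 240.3 FPKM in WT and 129.4 and 184.8 FPKM in Cxxc1-null libraries, Piwil2 at 104.2 and 97.5 against 62.7 and 77.1 FPKM, and the mitochondrial nuclease gene Pld6 at 60.4 and 93.9 against 45.7 and 49.9 FPKM. Tdrd6, a chromatoid body gene, was at 37.5 and 62.2 against 33.1 and 27.2 FPKM. In these 5 genes each Cxxc1-null value was below both WT values, and limma adjusted p-values lay between 0.36 and 0.43. DNA methylation and CXXC genes had 3 of 12 positive and a median of -0.21, which became 0.05 without WT replicate 2, and differed by a median of -0.33 between the WT replicates; Dnmt1, the maintenance methyltransferase gene, was at 6.31 and 7.97 against 4.61 and 4.56 FPKM, and Dnmt3l, the germ-line cofactor gene, at 0.751 and 0.165 against 1.29 and 1.88 FPKM. Histone variant genes had 8 of 18 positive with a median of -0.20. Meiotic division kinases and cyclins had 11 of 32 positive with a median of -0.07, and in it the phosphatase gene Cdc25c was at 0.748 and 2.32 against 3.67 and 5.29 FPKM.

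Lists of later and earlier germ cells were also measured. In the spermatid list, 34 of 43 members were positive with a median of 0.30. In limma 10 rose at an unadjusted p under 0.05, as did 1045 of 12956 tested genes, and 0 were called. Both Cxxc1-null libraries lay above both WT libraries in 19 of the 43 (44.2%) and below them in 3 (6.98%). The shares of all tested genes were 24.1% and 13.3%. Catsper3 and Catsper4, subunits of the sperm calcium channel, were at 3.92 and 3.12 against 16.9 and 14.6 FPKM, and at 0.767 and 1.61 against 6.34 and 4.64 FPKM. The acrosomal genes Acrv1 and Spaca7 were at 17.7 and 11.9 against 45.1 and 65.4 FPKM, and at 16.5 and 10.3 against 43.0 and 57.3 FPKM. Groups were apart in all 4, with limma adjusted p-values of 0.13 to 0.25. The summed level of the list did not separate the genotypes, at 8496 and 7712 FPKM in WT and 8674 and 7426 FPKM in Cxxc1-null libraries. Spermatid transcription regulators had 12 of 19 positive with a median of 0.05, among them Fhl5, a CREM coactivator gene, at 17.98 and 6.79 against 35.0 and 38.2 FPKM, and Creb3l4 at 10.2 and 10.2 against 21.7 and 27.7 FPKM. Spermatogonial and early meiotic genes had 5 of 12 positive with a median of -0.02, which became 0.19 without WT replicate 2 and 0.09 without Cxxc1-null replicate 1, and Id4, a gene of undifferentiated spermatogonia, was at 112.1 and 77.9 against 51.6 and 60.0 FPKM.

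Markers of other testis cells were measured as a check on the sort, and summed levels of each list were higher in both Cxxc1-null than in both WT libraries. Summed over the 21 Sertoli markers in the table, levels were 119.1 and 90.4 FPKM in WT and 157.5 and 183.2 FPKM in Cxxc1-null libraries, and 10 of 11 members were positive with a median of 0.82. The largest differences were those of Dhh, the desert hedgehog ligand gene, at 0.878 and 1.26 against 4.01 and 3.12 FPKM, and of Aard, at 1.84 and 1.20 against 6.10 and 3.98 FPKM, with limma adjusted p-values of 0.10 and 0.19. Rhox8, an X-linked homeobox gene of Sertoli cells, was at 1.40 and 2.25 against 3.38 and 4.08 FPKM. Defining Sertoli markers were at or near 0, among them Sox9, Amh, Fshr and Gata4 with highest values of 0.419, 0.11, 0.0925 and 0.0757 FPKM in any of the 4 libraries. Leydig markers summed to 9.39 and 30.8 against 32.0 and 52.1 FPKM, most of it Insl3; 2 of 12 were members, 1 of them positive, and WT replicate 2 stood close to Cxxc1-null replicate 1. Peritubular, endothelial and blood markers summed to 7.24 and 9.16 against 15.0 and 15.1 FPKM, with 4 of 20 members, all positive; Acta2, smooth muscle actin, was at 1.90 and 2.25 against 4.62 and 5.73 FPKM. 0 markers of these 3 lists were called, and their part in the rises of low genes such as Postn, Gata6 and Cyp19a1, which somatic testis cells also express, was not tested.

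Housekeeping and stress lists had 0 called members. Their medians ran from 0.03 to 0.26, against 0.04 over all tested genes, of which 54.4% were positive. Ribosomal protein genes had 66 of 82 positive with a median of 0.26, and oxidative phosphorylation genes 70 of 80 with a median of 0.23; under quantile normalization these became 53 of 82 with 0.10 and 53 of 80 with 0.07. Without WT replicate 2 the medians were 0.09 and -0.06, and the oxidative phosphorylation genes differed by a median of 0.56 between the WT replicates. Listed p53 targets had 6 of 12 positive and a median of 0.03. Immediate early and stress genes had 7 of 10 positive with a median of 0.22, among them the heat shock gene Hspb1, at 4.15 and 6.33 against 24.96 and 14.4 FPKM, with a log2 difference of 1.70 ± 0.31 and a limma adjusted p of 0.056, just above the threshold. The Cxxc1-null values of Hspb1 were above both WT values.

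**Figure D5:**
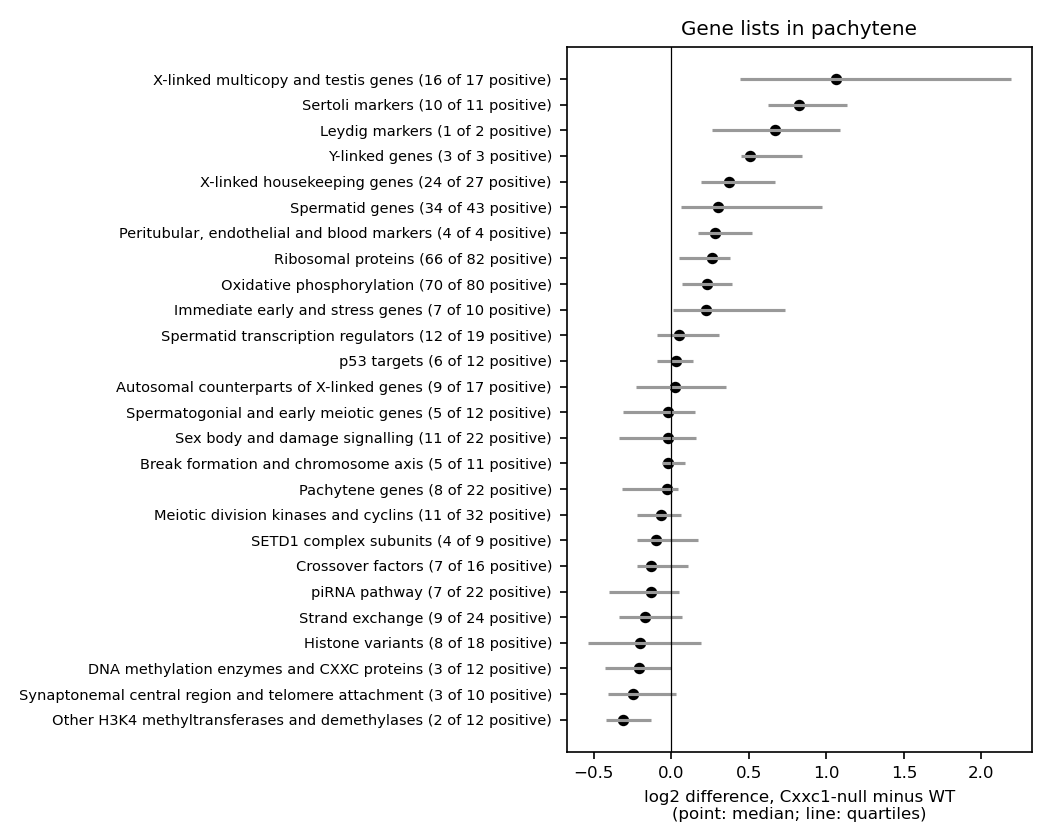
Median (point) and quartiles (line) of the pachytene log2 difference, Cxxc1-null minus WT, over the members of each gene list, with the number of positive members of the members measured. X-linked multicopy and testis genes (median 1.06) and Sertoli markers (median 0.82) stand highest and the list of other H3K4 methyltransferases and demethylases lowest (median -0.31).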

How the data were processed

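RNA was measured in 12 libraries, 4 of them pachytene. The authors deposited 1 table of FPKM values; per the submitters' processing notes TopHat2 2.1.1, Cufflinks 2.2.1 and mm9 were named, with the role of each not given in the sources used here. Read depth is not given, so no counting intervals could be made. The 8 H3K4me3 ChIP libraries were not analysed here. Libraries were grouped by their titles, and 0 per-sample columns lacked a sample. Members, gene lists and tests were chosen with earlier results of these data known.

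The 12956 genes at 1 FPKM or more in at least 2 of 12 libraries were fitted in 1 limma model (limma 3.58.1, R 4.3.3) of log2(FPKM + 1), with a mean for each of 6 groups, 6 residual degrees of freedom and a variance trend. P-values were two-sided and Benjamini-Hochberg adjusted over all tested genes, with a threshold of 0.05. The fit was also run on simulated data, drawn independently for each gene and library with the model's own variances. Such data meet the assumptions of the model. They hold no deviation of a whole library, such as that of WT replicate 2, so its effect on the calls was not tested. The pseudocount of 1 makes the log2 difference of a low gene smaller than its change in FPKM; ratios are of mean FPKM. Chromosomes and overlaps came from a RefSeq table (GRCm38.p6) by symbol or unambiguous synonym, for 10999 members; 8847 members matched a promoter window. Called members are named, except 1 that is not reported here; in lists, called members, the 3 with the smallest p and the 3 with the highest WT mean may be named, and others are exceptions. Alternatives were the pseudocount, the filter, quantile or median scaling, no variance trend, pachytene libraries alone, members alone, short RNA left out, a replicate block and each library left out. Deviations of same-numbered libraries correlated at -0.08 in pachytene, 0.42 in diplotene and 0.19 in meiosis II; as not every value passed 0.1, the numbers were not taken as pairs.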

Additional observations from a re-analysis of the deposited data

Results flagged for a closer look

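The genotype difference differed between pachytene and diplotene in 3 genes by a limma test of that difference (adjusted p under 0.05). These were Mir487b, Mir5113 and Scarna8, each listed at 0 in all 4 pachytene libraries and in WT diplotene, and above 0 in both Cxxc1-null diplotene libraries (Mir487b at 189.0 and 101.0 FPKM). It differed between pachytene and meiosis II in 4 genes, Defb5, Mir135b, Mir92b and Slc25a43, each listed at 0 in all 4 pachytene libraries. Mir92b was at 96.5 and 180.0 FPKM in WT meiosis II and listed at 0 in the Cxxc1-null meiosis II libraries. None of these 7 genes is a pachytene member, so the differences lie in the other stages' levels. The Mir and Scarna entries are short RNA genes. FPKM is scaled by transcript length and read depth is not given, so how many reads their values rest on is not known. With short RNA genes left out, 0 genes passed against diplotene and 2 against meiosis II.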

How the results depend on the processing

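Of 678 alternative values of the 46 called genes, 678 kept their sign and 342 stayed under the threshold. The number called in pachytene, 46, became 86 with a pseudocount of 0.1, 9 with no filter, 28 with a 5 FPKM filter, 22 with the 4 pachytene libraries alone (8 of them shared with the 46) and 1 to 21 when each pachytene library was left out. With the replicate block 1 gene was called, with 0 shared; the same-numbered libraries share only a number. Under quantile normalization 30 of 35 calls were rises (85.7%), against 95.7%. The 3 genes differing between pachytene and diplotene became 0 with members alone or with short RNA left out, and 3 to 5 with libraries left out. The 4 differing between pachytene and meiosis II became 2 with a pseudocount of 0.1, a 5 FPKM filter or short RNA left out, 33 with no filter, 0 with members alone, 14 with quantile normalization or a common median, and 3 to 8 with libraries left out. The rise of the X relative to autosomes, 0.86, stayed positive, from 0.30 with no filter to 1.32 with a 5 FPKM filter, and 0.67 to 1.04 with libraries left out; choosing members in each genotype gave 0.80 and in both WT libraries 0.72, alternatives added after seeing the data. In the list of SETD1 subunits, genes whose sign turned with a library left out included Ash2l (-0.17 with all libraries, range -0.41 to 0.08) and Wdr5 (-0.22, range -0.46 to 0.02). They also included Bod1 (0.04, range -0.03 to 0.10) and Bod1l (-0.10, range -0.24 to 0.03). Bod1 was -0.01 under either scaling, and the cause was not tested. Sign changes of other named genes that were not called are not listed here, and these genes should not be taken as stable. Of 26 lists, 14 kept the sign of their median in every alternative. With 2 libraries per group and unknown depth, a missed threshold does not show that a gene did not differ.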
